A study of Mus musculus with 8 samples.

Results

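The mRNA levels of 10 genes for oxygen-dependent dioxygenases that act on chromatin were compared in cultured B16F10 cells, a mouse melanoma line. The genes encode 7 histone demethylases with a Jumonji C (JmjC) domain (*Kdm3a*, *Kdm4b*, *Kdm4c*, *Kdm5b*, *Kdm5c*, *Kdm6b* and *Kdm2b*) and the ten-eleven translocation (TET) enzymes (*Tet1*, *Tet2* and *Tet3*). They were taken by gene symbol from the 55414 genes in the expression table, and each symbol was found in 1 row. RNA-seq had been done on 8 libraries in 4 groups of 2, all after 24 h of culture. Wild-type (WT) cells and cells with a CRISPR knockout of *Ppif* (CypD KO) were kept at 21% O2. Stable cells carrying an empty pcDNA vector (Control) and stable cells transfected with pcDNA-CypD (labelled CypD OE) were kept at 1% O2. *Ppif* encodes cyclophilin D (CypD), a mitochondrial matrix isomerase that regulates opening of the permeability transition pore. The KO cells were clones selected with puromycin after transfection of Cas9, the Control and CypD OE cells were clones resistant to G418, and no such selection is stated for WT cells. The comparison of Control with WT therefore joins a change of oxygen with a change of vector and selection, and these cannot be told apart. The comparison of CypD KO with WT likewise joins the knockout with transfection, selection and choice of clones. CypD OE and Control are different resistant clones, so the effect of the insert and differences between clones cannot be told apart.

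JmjC demethylases and TET enzymes are iron enzymes that use molecular oxygen and 2-oxoglutarate to hydroxylate a methyl group. Hydroxylation of methyl-lysine on a histone releases the methyl group as formaldehyde, and oxidation of 5-methylcytosine by a TET enzyme gives 5-hydroxymethylcytosine and starts the route to unmethylated DNA. The prolyl hydroxylases that mark hypoxia-inducible factor (HIF) for degradation belong to the same superfamily. Several of the demethylase genes, *Kdm3a* and *Kdm4b* among them, are known as transcriptional targets of HIF, so the level of an enzyme and the supply of its oxygen can move in opposite directions in hypoxic tumor cells. RNA-seq measures the mRNA, not enzyme activity or methylation. In RNA from a whole culture, fewer cells of a type and less RNA per cell cannot be told apart.

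The targeted gene was checked first. In TPM, a measure of transcript level scaled for transcript length and library size, *Ppif* was 50.7 and 49.99 TPM in WT and 10.4 and 12.1 TPM in CypD KO, so the KO libraries lay below WT. It was 44.6 and 42.3 TPM in Control and 50.3 and 49.3 TPM in CypD OE. This rise over Control, 0.19 ± 0.07 (SE) on the log2 scale, missed the threshold of 0.05 (adjusted p = 0.0794, limma). For its stable clones the paper reports overexpression of CypD protein by western blot of cell lysates, and protein was not measured here. Because the mRNA rise missed the threshold, the CypD OE libraries are called OE-labelled. Directions drawn from them, in any comparison of CypD OE, rest on the label and not on the *Ppif* mRNA. All 8 melanocyte markers tested for (*Mitf*, *Tyr*, *Tyrp1*, *Dct*, *Pmel*, *Mlana*, *Sox10* and *Slc45a2*) were at 1 TPM or more in every library, and their summed level was 15935 to 16040 TPM in WT, 12789 to 12958 in CypD KO, 20827 to 21385 in Control and 13775 to 13953 in the OE-labelled libraries. In CypD KO against WT 5 of them fell, while *Tyr* (log2 fold change 1.97, adjusted p = 4.02e-06, limma) and *Slc45a2* (0.39, adjusted p = 4.15e-04) rose, and in CypD OE against Control 5 fell and 1 rose. The 5 immune markers summed to 3.45 to 3.75 TPM in WT, 21.9 to 23.4 in CypD KO, 4.20 to 4.81 in Control and 1.13 to 1.91 in CypD OE. Nearly all of this was *Cd68*, at 21.9 and 23.3 TPM in CypD KO and 1.13 to 4.81 TPM elsewhere, while the defining marker *Ptprc* was at 0 to 0.02 TPM. The 5 fibroblast markers summed to 15.4 to 17.7 TPM in WT, 34.0 to 36.9 in CypD KO, 19.0 to 21.0 in Control and 9.21 to 11.3 in CypD OE, with *Dcn* listed at 0 in all libraries. In CypD KO against WT *Postn* rose (log2 fold change 1.91, adjusted p = 9.47e-06, limma) whereas *Col1a2* fell (-1.79, adjusted p = 0.00176). Endothelial markers summed to at most 1.20 TPM and all 3 keratinocyte markers were at 0. The part of these shifts in the results below was not tested. Low values fell on steps of single fragments, and by those steps each of the 10 genes rested on about 330 to 5860 fragments per library.

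The genes lie on 9 chromosomes, with *Kdm3a* (chr6:71565956-71610472, minus strand, GRCm39) and *Tet3* (chr6:83339355-83436066, minus strand) on the same one. Promoter windows of 250 bases before to 50 bases after a transcription start were read from the RefSeq promoter table, which gives build GRCm38.p6, and were placed on GRCm39 by exact sequence match. The windows were searched on both strands for ACGTG and GCGTG, the core letters of the hypoxia response element to which HIF binds. Windows were found for 8 of the 10 genes, while *Kdm4b* and *Kdm6b* had none in that table and were not searched. At least 1 match was present in windows of 5 genes (*Kdm3a*, *Kdm4c*, *Kdm5b*, *Kdm2b* and *Tet2*), or in 8 of 14 windows. The windows of *Kdm5c*, *Tet1* and *Tet3* held no match. Over all 32851 windows of the table, 43.8% held either motif, so that a match is common. Stretches around matches are shown for these 5 genes, each of which changed in at least 1 comparison, to show what lies at their starts. Capitals mark ACGTG or GCGTG, or their reverse complements CACGT and CACGC.

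*Kdm3a*, at -27 from the start, chr6:71609912-71609940, minus strand: ccgggaggctgtGCGTGtcttgtgagaga
*Kdm5b*, at -229 from the start, chr1:134487675-134487703, plus strand: ccaaaatatatgACGTGattgatggattg
*Kdm5b*, at -19 from the start, chr1:134487885-134487913, plus strand: cggaggagcactGCGTGgggtagcggcaa
*Kdm4c*, at -53 from the start, chr4:74170051-74170080, plus strand: cggcccagcggtCACGTGggggcGCGTGcg
*Tet2*, at -16 from the start, chr3:133250151-133250179, minus strand: tcgcatgccagtCACGTccgccccctcgg
*Kdm2b*, at -126 from the start, chr5:123126680-123126708, minus strand: caacgccgaaagGCGTGgaagggactgag

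The first *Kdm5b* stretch lies before every annotated transcript of the gene, whereas the second lies in an annotated untranslated exon of 16 of its 21 transcripts. The *Kdm3a* stretch lies in an untranslated exon of 19 of 41 annotated transcripts, and that of *Tet2* in one of 6 of 17. The *Kdm3a* windows chr6:71609621-71609920 and chr6:71586074-71586373 held 0 matches. The *Kdm2b* stretch is 1 of 5 found in its windows and lies in an intron of 10 of 24 annotated transcripts. In the *Kdm4c* stretch the palindrome CACGTG holds the core on both strands and is followed by GCGTG. It lies in an untranslated exon of 2 and an intron of 1 of 31 annotated transcripts, inside the annotated gene. The *Kdm4c* window at the annotated start of the gene, chr4:74160484-74160783, held 0 matches. The window of the printed *Kdm4c* stretch held 6, counted on both strands, among them a second CACGTG at -85 that is not shown. These letters are a description of the windows, and binding was not measured here.

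All 10 genes were above the filter on low values (1 TPM in at least 2 libraries), and each comparison was tested over the 13526 genes that passed it. The H3K9 demethylases *Kdm3a*, *Kdm4b* and *Kdm4c* and the H3K4 demethylase *Kdm5b* rose in CypD KO cells relative to WT, whereas *Kdm2b*, *Tet1* and *Tet3* fell. Thus 7 of the 10 genes changed, beside 48.4% of all genes tested, and the median log2 fold change was -0.08 over the 10 genes and 0.09 over all genes. In the OE-labelled libraries, *Kdm3a*, *Kdm4b*, *Kdm5b*, *Kdm5c*, *Tet1* and *Tet2* fell relative to Control and *Tet3* rose. Again 7 of 10 changed, beside 37.4% of all genes, and the median was -0.61 over the 10 genes against 0.00 over all genes. Between Control and WT, 7 genes rose and the other 3 did not pass the test, beside 24.2% of all genes changed in either direction, with medians of 0.50 and 0.01. The OE-labelled libraries differed from WT in 3 genes (*Tet1* and *Tet2* lower, *Tet3* higher), beside 27.7% of all genes. WT enters 3 of these comparisons and Control enters 2, so the comparisons are not independent of each other.

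**Figure D1:**
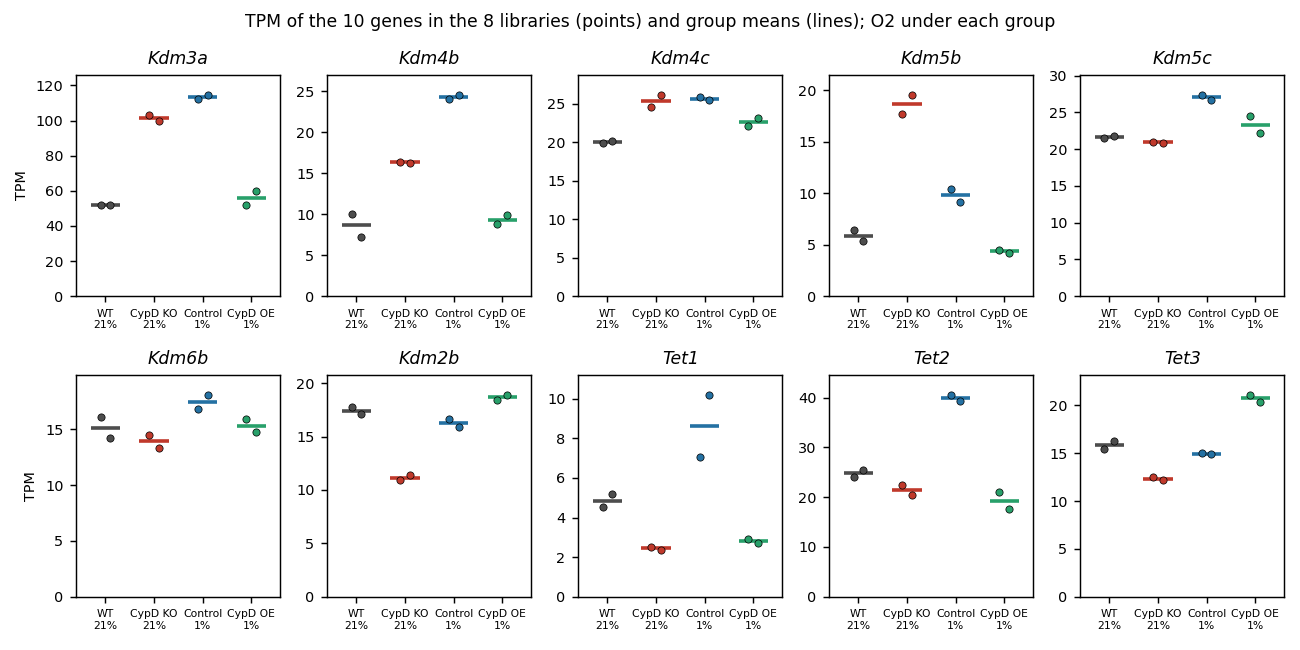
TPM of each of the 10 genes (y axes, starting at 0) in the 8 libraries (points), by group with its O2 level (x axes); lines are means of 2 libraries. *Kdm3a* sits at 99.5 to 115 TPM in CypD KO and Control and at 51.8 to 60.0 TPM in the other groups, whereas *Kdm5b* is highest in CypD KO and *Tet2* in Control.

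*Kdm3a*, which removes mono- and dimethyl groups from H3K9, was the most abundant of the 10 genes. It was 51.8 and 51.8 TPM in WT, 103 and 99.5 TPM in CypD KO, 113 and 115 TPM in Control, and 52.2 and 60.0 TPM in the OE-labelled libraries. The 4 libraries of CypD KO and Control were all above the other 4, with no overlap between groups. The rise in CypD KO was 1.96-fold (ratio of group means of TPM), a log2 fold change on log2(TPM + 1) of 0.95 ± 0.07 (SE, n = 2 per group, adjusted p = 5.26e-05, limma). The fall in the OE-labelled libraries against Control was 2.03-fold (log2 fold change -1.01 ± 0.07, adjusted p = 7.37e-05, limma), and the rise of Control over WT was 2.19-fold (log2 fold change 1.12 ± 0.07, adjusted p = 1.24e-04, limma). The OE-labelled libraries and WT differed by 0.11 (95% interval -0.05 to 0.27, adjusted p = 0.263, limma).

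*Kdm4b* and *Kdm4c* encode demethylases of trimethylated H3K9 that also act on H3K36. *Kdm4b* was 10.1 and 7.21 TPM in WT, 16.4 and 16.2 TPM in CypD KO, 24.1 and 24.6 TPM in Control, and 8.75 and 9.91 TPM in the OE-labelled libraries. Control was highest, CypD KO lay between, and WT and CypD OE overlapped. The rise in CypD KO was 1.89-fold (log2 fold change 0.86 ± 0.14, adjusted p = 0.00250, limma), the fall in CypD OE against Control was 2.61-fold (-1.30 ± 0.14, adjusted p = 6.27e-04), and Control exceeded WT 2.81-fold (1.41 ± 0.14, adjusted p = 9.00e-04). The WT libraries differed from each other by 0.43 on the log2 scale, the widest replicate gap of the 10 genes in that group.

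*Kdm4c* moved less. It was 19.9 and 20.2 TPM in WT, 24.5 and 26.2 TPM in CypD KO, 25.9 and 25.5 TPM in Control, and 22.2 and 23.1 TPM in the OE-labelled libraries. CypD KO and Control overlapped, and both lay above the other groups. It rose 1.27-fold in CypD KO (log2 fold change 0.33 ± 0.06, adjusted p = 0.00401, limma) and 1.28-fold in Control against WT (0.34 ± 0.06, adjusted p = 0.00778). After median-of-ratios rescaling the rise in CypD KO was 0.22 (adjusted p = 0.0267). The difference between CypD OE and Control, -0.17 (95% interval -0.32 to -0.03), missed the threshold (adjusted p = 0.0586, limma), and passed it with a filter of 5 TPM (adjusted p = 0.0498).

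*Kdm5b* encodes a demethylase of di- and trimethylated H3K4 and showed the widest range of the 10 genes, with a highest group mean 4.27 times the lowest. It was 6.39 and 5.36 TPM in WT, 17.7 and 19.6 TPM in CypD KO, 10.4 and 9.17 TPM in Control, and 4.50 and 4.23 TPM in the OE-labelled libraries. No groups overlapped, and CypD KO stood above Control, unlike for *Kdm3a* and *Kdm4b*. The rise in CypD KO was 3.18-fold (log2 fold change 1.52 ± 0.12, adjusted p = 8.03e-05, limma) and the fall in CypD OE against Control was 2.24-fold (-1.01 ± 0.12, adjusted p = 7.93e-04). Control exceeded WT 1.67-fold (0.65 ± 0.12, adjusted p = 0.00844, limma), a call that was lost without the first Control library (adjusted p = 0.0501) or when only the 4 libraries compared were fitted (adjusted p = 0.0512).

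*Kdm5c*, an X-linked gene for an enzyme with the same histone substrate, differed from it in pattern. It was 21.6 and 21.9 TPM in WT, 21.0 and 20.9 TPM in CypD KO, 27.4 and 26.7 TPM in Control, and 24.4 and 22.2 TPM in the OE-labelled libraries. Control was highest and no groups overlapped, but all 8 libraries lay between 20.9 and 27.4 TPM. The difference between CypD KO and WT was -0.05 (95% interval -0.20 to 0.10, adjusted p = 0.561, limma). *Kdm5c* was 1.25-fold higher in Control than in WT (log2 fold change 0.30 ± 0.06, adjusted p = 0.0155) and 1.16-fold lower in CypD OE than in Control (-0.21 ± 0.06, adjusted p = 0.0418). The first call was lost when any one of the 4 libraries was left out (adjusted p = 0.0556 to 0.0763), and the second under 6 alternatives, with adjusted p = 0.190 without the second CypD OE library.

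*Kdm6b* encodes a demethylase of H3K27. It was 16.1 and 14.2 TPM in WT, 14.5 and 13.4 TPM in CypD KO, 16.8 and 18.1 TPM in Control, and 15.9 and 14.7 TPM in the OE-labelled libraries. The Control libraries were above the rest. WT overlapped both CypD KO and CypD OE, and CypD KO lay below CypD OE. *Kdm6b* passed the threshold in none of the 4 comparisons in limma (adjusted p = 0.338, 0.177, 0.172 and 0.909 for CypD KO against WT, CypD OE against Control, Control against WT and CypD OE against WT). The 95% interval of the difference between CypD KO and WT was -0.33 to 0.10 on the log2 scale, so that a change as large as that of *Kdm4b* lay outside it.

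*Kdm2b* encodes a demethylase of H3K36 that also brings a Polycomb complex, PRC1.1, to unmethylated CpG islands. It was 17.7 and 17.1 TPM in WT, 10.9 and 11.4 TPM in CypD KO, 16.7 and 15.9 TPM in Control, and 18.5 and 18.9 TPM in the OE-labelled libraries. The CypD KO libraries stood below the other 6, whose values lay between 15.9 and 18.9 TPM. The fall in CypD KO was 1.56-fold (log2 fold change -0.60 ± 0.07, adjusted p = 4.29e-04, limma). The difference between CypD OE and Control was 0.19 (95% interval 0.03 to 0.35, adjusted p = 0.0653, limma) and passed the threshold when the prior variance had no trend (adjusted p = 0.0425), and Control and WT differed by -0.09 (95% interval -0.25 to 0.07, adjusted p = 0.358). Exons of *Kdm2b* overlap those of *Rnf34* on the other strand over 643 bases. *Rnf34* differed by 0.22 between CypD KO and WT (adjusted p = 0.243, limma).

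Among the TET enzymes, *Tet1*, which carries a CXXC domain that binds CpG-rich DNA, had the lowest levels. It was 4.53 and 5.19 TPM in WT, 2.49 and 2.38 TPM in CypD KO, 7.08 and 10.2 TPM in Control, and 2.89 and 2.69 TPM in the OE-labelled libraries. Control was highest, WT next, and CypD OE and CypD KO lowest, with no overlap. *Tet1* fell 1.996-fold in CypD KO (log2 fold change -0.77 ± 0.17, adjusted p = 0.00909, limma) and 3.10-fold in CypD OE against Control (-1.33 ± 0.17, adjusted p = 0.00128). The call in CypD KO was lost without the second WT library (-0.69, adjusted p = 0.0528). The rise of Control over WT (0.70 ± 0.17, adjusted p = 0.0265, limma) was lost under 5 alternatives, with adjusted p = 0.117 without the first WT library and a difference of 0.47 (adjusted p = 0.1003) without the second Control library. The Control libraries differed from each other by 0.47 on the log2 scale. *Tet1* was also 1.74-fold lower in CypD OE than in WT (-0.63 ± 0.17, adjusted p = 0.0345), which was lost without any one of the 4 libraries (adjusted p = 0.0793 to 0.141).

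*Tet2*, the most abundant of the TET genes in WT, CypD KO and Control, lacks the CXXC domain. It was 24.1 and 25.5 TPM in WT, 22.4 and 20.3 TPM in CypD KO, 40.5 and 39.4 TPM in Control, and 21.0 and 17.6 TPM in the OE-labelled libraries. Control stood above all others, and CypD KO and CypD OE overlapped. *Tet2* fell 2.07-fold in CypD OE against Control (log2 fold change -1.02 ± 0.09, adjusted p = 2.99e-04, limma) and was 1.61-fold higher in Control than in WT (0.67 ± 0.09, adjusted p = 0.00332). The difference between CypD KO and WT was -0.21 (95% interval -0.43 to 0.01) and missed the threshold (adjusted p = 0.109, limma). It passed after rescaling by median-of-ratios size factors (-0.32, adjusted p = 0.0217) and after subtraction of chromosome medians (-0.42, adjusted p = 0.00690). *Tet2* was 1.28-fold lower in CypD OE than in WT (-0.35 ± 0.09, adjusted p = 0.0322), lost under 6 alternatives with adjusted p = 0.132 without the second WT library and a difference of -0.23 (adjusted p = 0.131) without the second CypD OE library.

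*Tet3* moved the other way from *Tet2* in the OE-labelled libraries. It was 15.4 and 16.3 TPM in WT, 12.5 and 12.2 TPM in CypD KO, 15.0 and 14.9 TPM in Control, and 21.1 and 20.4 TPM in the OE-labelled libraries. CypD OE was highest and CypD KO lowest, with no overlap between groups. *Tet3* fell 1.28-fold in CypD KO (log2 fold change -0.34 ± 0.06, adjusted p = 0.00507, limma) and rose 1.39-fold in CypD OE against Control (0.44 ± 0.06, adjusted p = 0.00222) and 1.31-fold against WT (0.37 ± 0.06, adjusted p = 0.00706). Control and WT differed by -0.08 (95% interval -0.23 to 0.08, adjusted p = 0.432). Exons of *Tet3* overlap those of *Bola3* on the opposite strand over 1512 bases, and *Bola3* was at 148 to 232 TPM. *Bola3* rose in CypD KO (log2 fold change 0.54, adjusted p = 2.36e-04, limma) and differed by -0.12 in CypD OE against Control (adjusted p = 0.110), so in CypD KO it moved in the opposite direction to *Tet3*. The strand setting of the counting is not given in the sources used here, and reads of the shared bases may be divided between the genes.

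**Figure D2:**
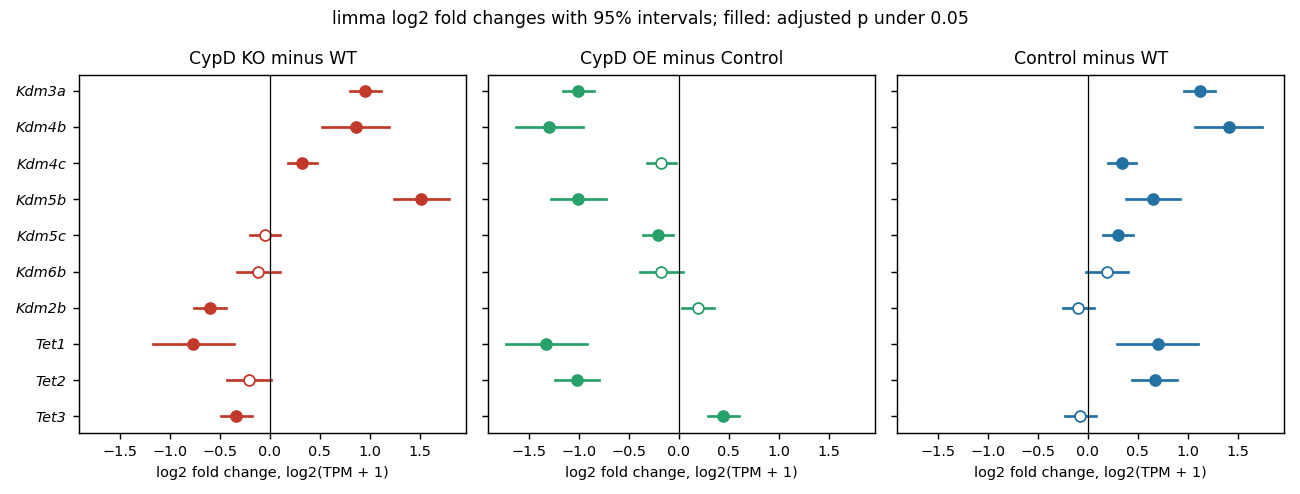
log2 fold changes on log2(TPM + 1) from limma (x axes) of the 10 genes (y axis) in 3 comparisons, with 95% intervals as bars; filled points had an adjusted p under 0.05 over all genes tested. *Kdm5b* has the largest rise in CypD KO (1.52), and *Tet1* and *Kdm4b* the largest falls in CypD OE against Control (-1.33 and -1.30).

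The genes on chromosome 6 were set beside their neighbours, because the median over the 710 genes tested on that chromosome was 0.26 in CypD KO against WT and 0.21 in CypD OE against Control. *Kdm3a* (0.95 and -1.01) and *Tet3* (-0.34 and 0.44) thus lay on a chromosome whose genes were on average higher in both. Within 1000000 bases of *Kdm3a*, 16 of 30 tested genes rose and 3 fell in CypD KO (median 0.35), the direction of *Kdm3a* itself, and 14 rose and 2 fell in CypD OE against Control (median 0.15). Within 1000000 bases of *Tet3*, 22 of 34 tested genes rose in CypD KO and the others did not pass the test, and 13 rose and 2 fell in CypD OE against Control. After subtraction of chromosome medians in each library, *Tet3* was -0.61 in CypD KO against WT (adjusted p = 2.94e-04, limma) and 0.22 in CypD OE against Control (adjusted p = 0.0333), so the fall became larger and the rise smaller. Its difference between CypD OE and WT became 0.13 (adjusted p = 0.197), and that call was lost. *Kdm3a* was 0.68 in CypD KO and -1.23 in CypD OE against Control after the same step (adjusted p = 3.24e-04 and 4.95e-05). On chromosome 3, which holds *Tet2*, the median over 711 tested genes was 0.21 in CypD KO and -0.06 in CypD OE against Control. Within 1000000 bases of *Tet2*, 0 of 7 tested genes rose and 4 fell in CypD KO (median -0.34). In CypD OE against Control 0 rose and 3 fell there (median -0.28), the direction of *Tet2* itself. The part of these neighbourhoods in the changes was not tested.

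The 10 genes were then placed within their subfamilies, whose TPM values were summed over all members listed (mean ± SD, n = 2). In the KDM3 subfamily (*Kdm3a*, *Kdm3b* and *Jmjd1c*) the sum was 105 ± 2.16 TPM in WT, 173 ± 5.15 in CypD KO, 169 ± 2.48 in Control and 119 ± 4.09 in the OE-labelled libraries. *Kdm3a* made up 48.4 to 49.8% of it in WT, 58.6 to 58.9% in CypD KO, 67.0 to 67.1% in Control and 44.9 to 49.2% in CypD OE. *Kdm4b* made up 15.3 to 19.5% of the KDM4 sum in WT and 34.7% in both Control libraries, with CypD KO between at 25.1%. In the KDM5 subfamily *Kdm5a* held 72.6 to 81.9% of the sum in every library, so that the share of *Kdm5b*, the gene of widest range, was 2.9 to 13.1%.

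In the KDM2 subfamily the sum did not follow *Kdm2b*. It was 57.9 ± 5.31 TPM in WT, 70.2 ± 0.87 in CypD KO, 77.2 ± 4.21 in Control and 72.8 ± 2.48 in the OE-labelled libraries. The share of *Kdm2b* was 27.8 to 32.7% in WT, 15.4 to 16.4% in CypD KO, 20.8 to 21.4% in Control and 24.8 to 26.6% in CypD OE. Its paralog *Kdm2a* rose in CypD KO (log2 fold change 0.54 ± 0.10, adjusted p = 0.00369, limma). *Kdm2a* rose by a like amount in Control against WT (0.58 ± 0.10, adjusted p = 0.00660, limma), where *Kdm2b* did not pass the test. The TET sum was 45.5 ± 2.06 TPM in WT, 36.1 ± 1.69 in CypD KO, 63.6 ± 1.37 in Control and 42.8 ± 3.06 in CypD OE. *Tet2* held 61.0 to 64.7% of it in Control and 43.3 to 46.7% in CypD OE, where *Tet3* held 46.9 to 50.1% against 23.1 to 24.0% in Control. The Y-linked genes *Kdm5d* and *Uty* were listed at 0 in all 8 libraries.

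**Figure D3:**
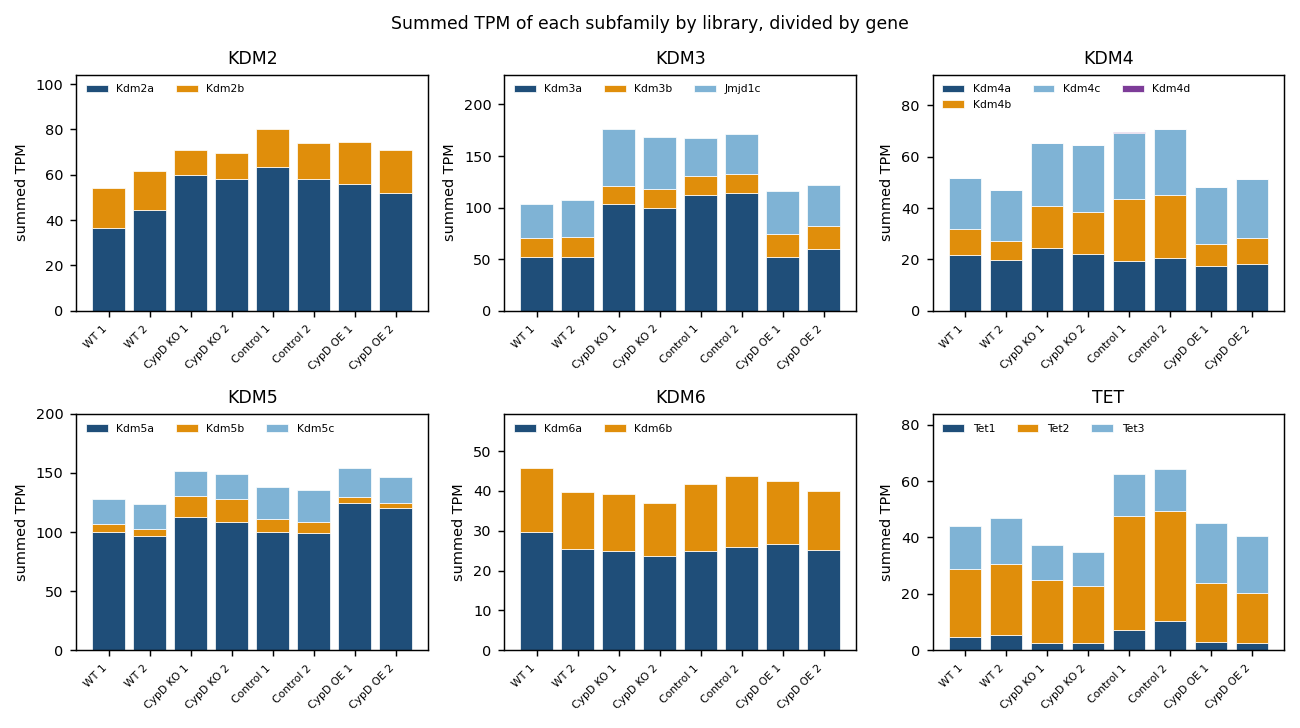
Summed TPM (y axes, starting at 0) of 6 subfamilies in each of the 8 libraries (x axes), divided by gene. *Kdm3a* and *Kdm4b* take larger shares in CypD KO and Control, *Kdm5a* dominates KDM5 throughout, and the TET sum is highest in Control.

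Other genes of the same chemistry were counted next. The counts of each list here and below stand beside shares over all genes tested. These were 30.1% higher and 18.4% lower in CypD KO against WT, and 19% and 18.3% in CypD OE against Control. The lists are short, and many of their counts are near these shares. Of 13 further JmjC demethylase genes, 10 were tested. In CypD KO against WT 6 rose and the other 4 did not pass the test (median 0.23 against 0.09 over all genes), and in CypD OE against Control 4 rose and the other 6 did not pass (median 0.12 against 0.00). The largest rises in CypD KO were those of *Hr*, the corepressor Hairless, which was 3.38 and 3.32 TPM in WT and 10.9 and 10.1 TPM in CypD KO (log2 fold change 1.40 ± 0.11, adjusted p = 1.03e-04, limma), and of *Kdm7a*, a demethylase of H3K9 and H3K27, which was 7.10 and 7.93 TPM in WT and 21.9 and 20.3 TPM in CypD KO (1.38 ± 0.10, adjusted p = 7.51e-05). *Jmjd1c*, a paralog of *Kdm3a*, also rose (0.60 ± 0.06, adjusted p = 2.81e-04). *Hr* rose in CypD OE against Control too (0.80 ± 0.11, adjusted p = 0.00196), whereas *Kdm7a* and *Jmjd1c* differed by 0.11 and 0.12 there (adjusted p = 0.431 and 0.184).

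Of 11 other JmjC proteins, 2 rose in CypD KO and the other 9 did not pass the test, and 2 rose and 1 fell in CypD OE against Control. The fall was that of *Jmjd6*, a lysyl hydroxylase of splicing factors, which was 85.8 and 89.1 TPM in WT, 108 and 104 TPM in CypD KO, 148 and 148 TPM in Control, and 76.5 and 77.0 TPM in the OE-labelled libraries. No groups overlapped, and the order was that of *Kdm3a* except that CypD OE lay below WT. *Jmjd6* rose in CypD KO (0.27 ± 0.04, adjusted p = 9.75e-04, limma) and fell in CypD OE against Control (-0.94 ± 0.04, adjusted p = 8.01e-06). Of the FAD-dependent demethylases, which need no 2-oxoglutarate, *Kdm1a* rose in CypD KO (0.18 ± 0.06, adjusted p = 0.0440) and *Kdm1b* rose in CypD OE against Control (0.34 ± 0.09, adjusted p = 0.0273).

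The enzymes that set the marks removed by the 10 genes were compared next. Of 6 H3K9 methyltransferases 2 fell in CypD KO and the other 4 did not pass the test. These were *Suv39h1* (44.4 and 43.9 TPM in WT, 32.2 and 29.5 TPM in CypD KO, log2 fold change -0.51 ± 0.07, adjusted p = 0.00112, limma) and *Suv39h2* (-0.34 ± 0.07, adjusted p = 0.00720). *Suv39h1* rose in CypD OE against Control (0.32 ± 0.07, adjusted p = 0.0115). Of 6 H3K4 methyltransferases, *Kmt2c* rose (0.31 ± 0.08, adjusted p = 0.0169) and *Setd1b* fell (-0.49 ± 0.09, adjusted p = 0.00343) in CypD KO, and *Setd1a* rose in CypD OE against Control (0.23 ± 0.05, adjusted p = 0.00867). Of 5 H3K36 methyltransferases 2 rose in CypD KO and 1 in CypD OE against Control, with *Nsd3* at 31.0 and 31.4 TPM in WT and 52.4 and 49.1 TPM in CypD KO (0.69 ± 0.05, adjusted p = 8.47e-05).

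The H3K27 methyltransferase complex, which opposes *Kdm6b*, moved in parts. In CypD KO 2 of 6 genes rose and 2 fell, and in CypD OE against Control 3 rose and 1 fell. *Ezh2*, its main catalytic subunit, was 182 and 191 TPM in Control and 274 and 268 TPM in the OE-labelled libraries (log2 fold change 0.54 ± 0.03, adjusted p = 7.25e-05, limma), whereas *Ezh1*, the alternative subunit, fell from 20.4 and 16.9 TPM to 13.5 and 12.6 TPM (-0.48 ± 0.10, adjusted p = 0.00801). In CypD KO *Ezh1* rose (0.50 ± 0.10, adjusted p = 0.00491) and *Ezh2* rose slightly (0.11 ± 0.03, adjusted p = 0.0424).

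Around the DNA demethylases, 2 of 4 tested genes for DNA methyltransferases and their recruitment factor fell in CypD KO and the other 2 did not pass the test. *Dnmt3b*, a methyltransferase of unmethylated DNA, was 5.90 and 5.63 TPM in WT and 1.95 and 2.02 TPM in CypD KO (log2 fold change -1.18 ± 0.13, adjusted p = 3.59e-04, limma), and *Uhrf1*, which recruits *Dnmt1*, fell by less (-0.22 ± 0.04, adjusted p = 0.00450). Of 4 tested genes for TET partners and base removal, 2 rose and 1 fell in each of the comparisons. *Tdg*, the glycosylase that excises the oxidised bases made by TET enzymes, was 160 and 173 TPM in WT and 87.0 and 95.6 TPM in CypD KO (-0.86 ± 0.06, adjusted p = 4.79e-05). Of 9 partners of *Kdm2b* in PRC1.1, 2 rose and 3 fell in CypD KO and 5 rose in CypD OE against Control, where the other 4 did not pass the test. *Bcor*, its corepressor subunit, was 26.7 and 31.7 TPM in WT, 15.6 and 15.0 TPM in CypD KO, 17.9 and 19.1 TPM in Control and 26.7 and 25.7 TPM in CypD OE, and fell in CypD KO (-0.89 ± 0.09, adjusted p = 2.70e-04) as *Kdm2b* did. *Pcgf1*, which defines the complex, rose (0.72 ± 0.08, adjusted p = 4.03e-04).

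Established HIF targets gave the scale for the 10 genes. All 8 HIF reference genes (*Vegfa*, *Bnip3*, *Egln3*, *Egln1*, *Car9*, *Pdk1*, *Ndrg1* and *Ankrd37*) rose in Control against WT (median log2 fold change 2.13) and fell in CypD OE against Control (median -2.15), and in CypD KO 7 rose and *Ndrg1* fell (median 2.18). In the OE-labelled libraries 7 of the 8 did not pass the threshold against WT, although these cells were kept at 1% O2, and *Ndrg1* was lower. Over all genes tested, 12.1% were higher and 12.1% lower in Control against WT, and 14% and 13.7% in CypD OE against WT. *Egln1*, a HIF prolyl hydroxylase, was 22.1 and 21.9 TPM in WT, 70.9 and 68.9 TPM in CypD KO, 102 and 99.3 TPM in Control, and 21.2 and 22.4 TPM in CypD OE. The group order of *Egln1* was Control, CypD KO, then WT and CypD OE overlapping, as for *Kdm4b*.

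**Figure D4:**
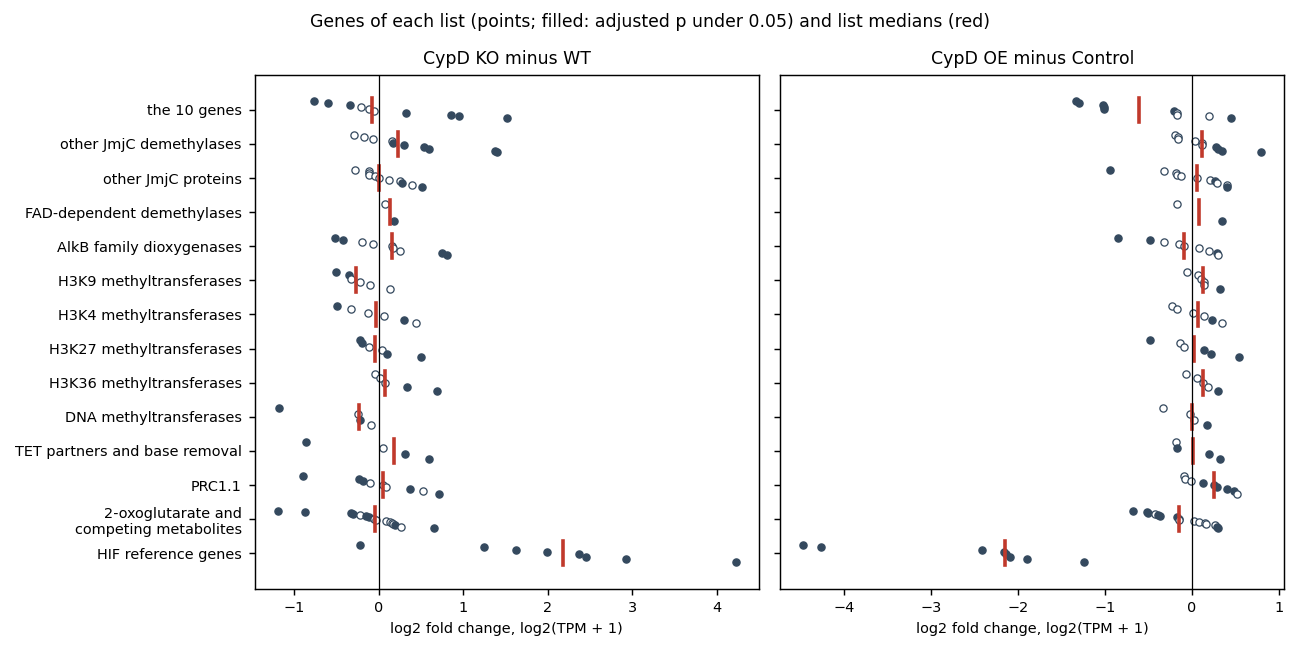
log2 fold changes on log2(TPM + 1) (x axes) of the genes tested in each list (points, filled where the adjusted p in limma was under 0.05) with list medians (red lines), for CypD KO minus WT and CypD OE minus Control. The medians of the HIF reference genes stand at 2.18 and -2.15, whereas those of the other lists drawn lie between -0.27 and 0.25 and that of the 10 genes is -0.08 and -0.61.

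For the 5 genes called in both CypD KO against WT and CypD OE against Control, the genes with the nearest profile were found by Euclidean distance over the 8 libraries, on log2(TPM + 1) centred on each gene's mean. The nearest to *Kdm3a* were *Bhlhe40* (distance 0.15), *Plod1* (0.25) and *Gm49759* (0.26). For *Kdm4b* they were *Mettl23*, *Ndufv3* and *Ugp2* (0.31 to 0.45), and for *Kdm5b* they were *Mxd4*, *Ccdc65* and *Fkbp7* (0.39 to 0.40). *Rapsn*, *Brca1* and *Sgk2* were nearest to *Tet1* (0.35 to 0.50), and *Ska2*, *Cpsf6* and *Spcs3* to *Tet3* (0.13 to 0.14). A profile of 8 libraries in 4 groups has few independent points, so the distances are a description only.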

How the data were processed

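RNA-seq was measured in 8 libraries of B16F10 cells, grouped by the sample labels. Per the submitters' processing notes and methods, the authors used Cutadapt 3.4 for trimming, STAR 2.7.8a for alignment to GRCm39, and RSEM 1.3.1. The authors deposited TPM with 2 decimals and the same sum in every library, so that the TPM of a gene depends on all other genes of its library. The authors tested read counts with DESeq2, whereas TPM were tested here.

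A gene was tested where at least 2 libraries reached 1 TPM (13526 genes). limma 3.58.1 (R 4.3.3, lmFit and eBayes with a trend) was run on log2(TPM + 1) of all 8 libraries, with a mean for each of 4 groups. Two-sided p-values were adjusted by Benjamini-Hochberg over these genes, with a threshold of 0.05. The test was also run on simulated data. The sources used here do not say that replicates came from separate cultures, so p-values measure the spread between these libraries, which may be technical. At an effective length of 1 kb, 1 fragment was worth 0.0815 to 0.098 TPM, and 83.2 to 86.3% of low values lay within 0.15 of whole fragments. Replicates correlated across genes at r = 0.983 to 0.985. In CypD KO against WT 4066 genes were higher and 2486 lower, which became 3204 and 3482 after median-of-ratios rescaling, while the median log2 fold change over all genes moved from 0.09 to -0.0074.

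The 10 genes and the gene lists were chosen with earlier results of these data known. Named beside the 10 genes were *Ppif*, the HIF reference genes, at most 4 genes per list with the largest absolute change among those called in either main comparison, and the 3 genes of nearest profile for each gene called in both. Overlapping genes and *Kdm5d*, *Uty*, *Cd68*, *Postn*, *Col1a2*, *Tyr*, *Slc45a2*, *Dcn* and *Ptprc* were named after their values were seen. Alternatives were a pseudocount of 0.1, no filter or one of 5 TPM, median-of-ratios rescaling, a fit of only the 4 libraries compared, a replicate block, eBayes without a trend, leaving out each library, and, chosen after seeing the data, subtraction of chromosome medians. Gene positions and transcripts were taken from GENCODE on GRCm39, and promoter sequences from RefSeq (GRCm38.p6). Protein sequences were not used here.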

Additional observations from a re-analysis of the deposited data

How the results depend on the processing

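With 2 libraries per group the spread is estimated from few values, and genes of few fragments are limited by depth. Leaving out 1 library gave 6 to 7 of the 10 genes changed in CypD KO against WT, beside 5127 to 5395 of all genes (6552 with all libraries), and 6 to 7 in CypD OE against Control, beside 3630 to 3852 (5057). In Control against WT it gave 5 in each case, and in CypD OE against WT it gave 1 to 3, with 1 also without the filter on low values. Over all genes, the count in Control against WT was 3269, against 1981 when only the 4 libraries compared were fitted and 2009 to 2109 with 1 library left out, and in CypD OE against WT it was 3744, against 2295 to 2532. The fits with fewer libraries have fewer residual degrees of freedom. Directions reversed only in CypD OE against WT and only for differences that had not passed the threshold. *Kdm3a* became -0.13 after subtraction of chromosome medians, *Kdm4b* ranged from -0.10 to 0.33 with 1 library left out, and *Kdm6b* became -0.0076 after rescaling and ranged from -0.065 to 0.10 with 1 library left out. *Kdm3a* was higher in CypD OE than in WT without the first CypD OE library (0.21, adjusted p = 0.0373, limma). Same-numbered libraries did not deviate together in every comparison (correlations across genes of their deviations from the group means, -0.02 to 0.11), so the numbers are not taken as pairs. With the replicate block, the call of *Kdm5c* in CypD OE against Control was lost (adjusted p = 0.0569, limma), and the other 39 of 40 differences of the 10 genes kept their direction and their side of the threshold.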

Other observations

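Relatives of the 10 genes outside chromatin were measured as well. Of 9 AlkB family dioxygenases, several of which demethylate nucleic acids, 2 rose and 2 fell in CypD KO and 1 rose and 2 fell in CypD OE against Control. *Alkbh5*, the demethylase of N6-methyladenosine in mRNA, was 51.3 and 50.2 TPM in WT, 90.7 and 88.0 TPM in CypD KO, 90.2 and 98.7 TPM in Control, and 52.5 and 51.6 TPM in the OE-labelled libraries. CypD KO and Control overlapped, and both lay above the other groups. It rose in CypD KO (log2 fold change 0.80 ± 0.05, adjusted p = 3.87e-05, limma) and in Control against WT (0.88 ± 0.05, adjusted p = 1.24e-04) and fell in CypD OE against Control (-0.85 ± 0.05, adjusted p = 5.54e-05). *Alkbh8*, a tRNA-modifying enzyme, fell in CypD KO (-0.52 ± 0.07, adjusted p = 0.00122) and rose in CypD OE against Control (0.28 ± 0.07, adjusted p = 0.0216).

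Of 16 genes for enzymes that make or consume 2-oxoglutarate, succinate, fumarate or 2-hydroxyglutarate, 2 rose and 6 fell in CypD KO and 2 rose and 7 fell in CypD OE against Control (medians -0.04 and -0.15). *Idh2*, which makes 2-oxoglutarate in mitochondria, was 178 and 181 TPM in WT, 77.2 and 78.5 TPM in CypD KO, 180 and 187 TPM in Control, and 143 and 141 TPM in the OE-labelled libraries. It fell in CypD KO (-1.19 ± 0.03, adjusted p = 1.56e-06, limma) and in CypD OE against Control (-0.37 ± 0.03, adjusted p = 2.79e-04). Its cytosolic counterpart *Idh1* fell in CypD KO (-0.87 ± 0.05, adjusted p = 2.13e-05, limma) and in CypD OE against Control (-0.39 ± 0.05, adjusted p = 0.00113) as well. *Idh1* was also lower in Control than in WT (-0.26 ± 0.05, adjusted p = 0.00967), where *Idh2* did not pass the test. *Got1*, which consumes or makes 2-oxoglutarate by transamination, rose in CypD KO (0.65 ± 0.05, adjusted p = 7.64e-05) and fell in CypD OE against Control (-0.68 ± 0.05, adjusted p = 1.09e-04).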
